A study of Mus musculus with 6 samples.

Results

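The genes around the Malat1 locus were taken as every gene of the deposited table that lies on mouse chromosome 19 and starts between positions 5300000 and 6300000 of the mm10 genome. They numbered 71 of the 21269 genes in the table, Malat1 and its neighbour Neat1 included. The rule uses position alone, but the window was chosen with earlier results of these data known. RNA was sequenced from HL-1 cells, a cardiomyocyte-like line that derives from mouse atrium, in 3 LNA Control and 3 LNA Malat1 libraries. An LNA gapmer is a short DNA strand with locked nucleic acid ends that pairs with a chosen RNA so that RNase H cleaves that RNA. The LNA Control group received a control gapmer and the LNA Malat1 group a gapmer against Malat1, each at 50 nM, and the cells had been seeded 24 hours earlier and were collected 48 hours later. Both groups come from the same cell line. Separate cultures for the replicates are not stated in the sources used here, so the p-values measure the spread between these libraries, which may be technical.

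Malat1 is an abundant long noncoding RNA that stays in the nucleus and collects in nuclear speckles, bodies rich in splicing factors. Neat1, transcribed from the adjacent gene, is the RNA scaffold of paraspeckles, bodies in which several RNA-binding proteins gather. The end of Malat1 is not a usual poly(A) tail: the primary transcript is cut in front of a tRNA-like stretch, and the mature RNA ends in an A-rich tract that folds back on upstream uridines into a triple helix. A gapmer acts on the transcript and leaves the DNA of the locus in place. Malat1 is transcribed from the minus strand, so its upstream neighbours, with Neat1 the nearest, have higher chromosome coordinates and its downstream neighbours have lower ones.

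Malat1 (ENSMUSG00000092341) lies at chr19:5795690-5802672. The stretch below, chr19:5795921-5796091 on the minus strand of GRCm38, is bases 6582 to 6752 of the 6983-base transcript in GENCODE M21 and is shown because it holds the end that sets this RNA apart. Capitals mark the tract of 12 A at bases 6674 to 6685 and a short tRNA-like motif at bases 6728 to 6738. The whole tRNA-like stretch and the site of the cut are not marked.
Malat1 3' region: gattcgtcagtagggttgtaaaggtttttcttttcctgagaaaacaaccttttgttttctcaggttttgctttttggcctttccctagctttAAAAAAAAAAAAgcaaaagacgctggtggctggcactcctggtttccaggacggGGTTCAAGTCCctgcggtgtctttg

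The promoters of Malat1 and of the 4 protein-coding genes within 250 kb upstream that fell with it are shown because these genes share a strand and a direction of change. Each runs from 250 bases before to 50 bases after the start that RefSeq gives (GRCm38.p6, minus strand). These motifs were searched on both strands, AP-1 (TGANTCA), CRE (TGACGTCA), the TATA box (TATAAA), the CCAAT box (CCAAT) and the GC box (GGGCGG), and capitals mark each match.
Malat1, chr19:5802623-5802922: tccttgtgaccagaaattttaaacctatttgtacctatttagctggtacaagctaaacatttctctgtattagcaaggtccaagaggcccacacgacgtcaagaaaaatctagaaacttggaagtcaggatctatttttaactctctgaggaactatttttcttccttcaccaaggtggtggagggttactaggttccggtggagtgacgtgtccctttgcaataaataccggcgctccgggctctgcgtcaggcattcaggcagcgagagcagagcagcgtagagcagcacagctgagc
Frmd8, chr19:5875159-5875458: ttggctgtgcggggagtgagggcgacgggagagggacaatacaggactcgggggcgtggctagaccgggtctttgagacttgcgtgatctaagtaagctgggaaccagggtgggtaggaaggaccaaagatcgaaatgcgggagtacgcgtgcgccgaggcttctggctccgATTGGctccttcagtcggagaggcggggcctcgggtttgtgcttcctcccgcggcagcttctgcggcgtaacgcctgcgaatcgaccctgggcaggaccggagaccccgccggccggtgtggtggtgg
Dpf2, chr19:5912822-5913121: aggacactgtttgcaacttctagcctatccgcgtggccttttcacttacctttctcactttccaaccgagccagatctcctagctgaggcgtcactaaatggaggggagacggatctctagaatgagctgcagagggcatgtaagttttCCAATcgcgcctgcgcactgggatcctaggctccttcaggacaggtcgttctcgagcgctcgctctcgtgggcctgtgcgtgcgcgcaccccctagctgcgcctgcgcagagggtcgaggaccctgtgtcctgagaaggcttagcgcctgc
Pola2, chr19:5964157-5964456: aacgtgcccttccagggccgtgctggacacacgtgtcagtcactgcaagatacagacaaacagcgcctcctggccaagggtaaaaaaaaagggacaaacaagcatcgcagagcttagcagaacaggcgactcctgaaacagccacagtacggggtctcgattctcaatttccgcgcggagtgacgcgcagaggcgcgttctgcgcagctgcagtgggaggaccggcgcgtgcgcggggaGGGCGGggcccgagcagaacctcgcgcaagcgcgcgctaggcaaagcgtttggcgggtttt
Capn1, chr19:6015776-6016075: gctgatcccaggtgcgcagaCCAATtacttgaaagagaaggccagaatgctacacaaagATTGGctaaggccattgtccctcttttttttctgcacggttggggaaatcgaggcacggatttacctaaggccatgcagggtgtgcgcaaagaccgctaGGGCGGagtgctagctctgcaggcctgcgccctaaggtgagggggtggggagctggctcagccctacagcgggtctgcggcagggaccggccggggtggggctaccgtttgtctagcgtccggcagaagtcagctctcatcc
None of these letters was found in the 300 bases of Malat1. Dpf2 and Frmd8 held 1 CCAAT box each, that of Frmd8 78 bases before its start, and Capn1 held 2, beginning 230 and 191 bases before its start. The GC box began 11 bases before the start of Pola2 and 92 bases before that of Capn1. A CCAAT box occurred in 37.4% of the 32851 mouse promoters of the same length and in 38.9% of the 54 promoters of the 48 window genes that had an entry. The GC box occurred in 35.7% of all promoters and 63% of those of the window, the TATA box in 13.6% and 5.56%, the CRE in 1.79% and 3.7%, and AP-1 in 7.81% and 3.7%. Neat1 and Fosl1 had no entry.

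The 6 libraries held between 4758777 and 4921406 normalized counts, and the size factors that rounding leaves visible put the reads on genes at between 4512584 and 5592914. LNA Malat1 replicates 1 and 3 differed by less than the sampling noise (chi-square 0.949 per gene over 14522 genes, p = 1.0), the closest pair, although over the 1754 genes with at least 1600 reads they exceeded it slightly (1.114 per gene, p = 0.00054). They were counted as 1 sample in each mean ± SD, which gives n = 3 for LNA Control and n = 2 for LNA Malat1 and leaves the spread between this pair out of the SD. Replicates 1 and 2 of LNA Malat1 did not clearly exceed the sampling noise either (chi-square 1.012 per gene, p = 0.15). Replicates 2 and 3 gave 1.163 per gene, against 1.768 to 4.18 for the LNA Control pairs. Over the genes with at least 1600 reads these LNA Malat1 pairs gave 1.666 and 2.057. An SD with n = 2 may therefore understate the spread between independent samples. Tests used all 6 libraries. Of 10 atrial cardiomyocyte markers, 8 were in the table, and Nppa and Sln were not. The 8 summed to 2687 to 2846 normalized counts in LNA Control against 2613 to 2673 in LNA Malat1, while Myh6 reached at most 7. Fibroblast markers summed to 4329 to 5079 and 3845 to 4017, with Col1a2 at most 1, and smooth muscle markers to 1396 to 1563 and 1405 to 1553. Of 3 leukocyte markers only Cd68 was in the table, at 14 to 23 and 31 to 38, without Ptprc and Lyz2. Of 4 endothelial markers only Pecam1 was, at 1 to 10 and 8 to 17, without Cdh5, Kdr and Tie1. The part of these marker shifts in the results was not tested.

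Malat1 itself stood at 5051, 5197 and 4369 normalized counts in LNA Control replicates 1 to 3 and at 2833, 2792 and 2732 in LNA Malat1 replicates 1 to 3. The groups were clearly apart, with every LNA Malat1 library below the lowest LNA Control library. The means were 4872 ± 442 (SD, n = 3) and 2787 ± 6.72 (SD, n = 2), so 57.2% of the control level remained. Its log2 fold change, on the scale of log2(normalized count + 1) that holds for every change given here, was −0.80 ± 0.07 (SE), with an adjusted p of 7.5e-06 in limma. Per kilobase of exon Malat1 had 697.7 normalized counts in LNA Control and 398.9 in LNA Malat1, which placed it at rank 1 in the window and at rank 2 of all genes of the table in LNA Control. In bulk RNA, fewer cells that express Malat1 and less of it per cell cannot be told apart, and the same holds for the other genes.

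Gm37376 is a small predicted transcript of unconfirmed status that lies inside Malat1 on the other strand, opposite bases 280 to 732 of the Malat1 transcript. It had 17, 7 and 16 normalized counts in LNA Control against 6, 5 and 1 in LNA Malat1. The groups did not overlap, although LNA Control replicate 2 was close to the LNA Malat1 libraries. It fell by 1.62 ± 0.51 (SE) on the log2 scale, with an adjusted p of 0.032 in limma. This call was lost (adjusted p = 0.061) when LNA Malat1 replicates 1 and 3 were fitted as 1 sample, and without LNA Control replicate 1 or 3 or LNA Malat1 replicate 2 or 3 (0.053 to 0.12). Gm37376 lies wholly within the exon of Malat1 and reads on several genes had been left out, so its counts can only come from counting by strand. Whether some were Malat1 reads placed on the wrong strand was not tested.

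Neat1 (chr19:5824708-5845478) is on the same strand as Malat1 and ends 22.0 kb upstream of the Malat1 start. It had 1435, 1393 and 1534 normalized counts in LNA Control against 1032, 1056 and 1188 in LNA Malat1. All 3 LNA Malat1 libraries were below all LNA Control libraries. The level was 74.5% of control, a log2 fold change of −0.41 ± 0.06 (SE) with an adjusted p of 0.00045 in limma. Its fall was smaller than the 1.5-fold minimum that a call requires here, and its level per kilobase of exon, 70.0 in LNA Control and 52.6 in LNA Malat1, was far below that of Malat1.

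The next genes upstream were Frmd8os, Frmd8, Slc25a45, Tigd3 and Dpf2. Frmd8 (chr19:5849702-5875274, 47.0 kb upstream, same strand) encodes a FERM domain protein that binds iRhoms and stabilises the cell surface sheddase they form with ADAM17. Its normalized counts were 247, 219 and 231 in LNA Control against 163, 147 and 191 in LNA Malat1. The groups did not overlap, with LNA Malat1 replicate 3 the nearest to control. Frmd8 fell to 69.7% of the control level (log2 fold change −0.48 ± 0.09, adjusted p = 0.0024 in limma). Its antisense partner Frmd8os, 43.0 kb upstream, was at 4, 7 and 11 normalized counts in LNA Control against 11, 13 and 13 in LNA Malat1. That was a difference in the other direction, with a log2 fold change of 0.76 and a 95% confidence interval from −0.03 to 1.55 (adjusted p = 0.14). Without LNA Control replicate 3 it passed the test, at 1.07 (adjusted p = 0.040).

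Slc25a45, a member of the mitochondrial carrier family 75.1 kb upstream on the other strand, had 10, 14 and 18 normalized counts in LNA Control against 7, 9 and 10 in LNA Malat1. The groups met at 10, and the log2 fold change of −0.61 (adjusted p = 0.17) did not pass, though it did under quantile normalization (−0.98, adjusted p = 0.033). Tigd3, named for its similarity to the Tigger transposon transposase, is on the Malat1 strand 88.5 kb upstream. Its values of 33, 39 and 38 against 39, 44 and 48 also met, at a log2 fold change of 0.24 (adjusted p = 0.29).

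Dpf2, Pola2 and Capn1, on the Malat1 strand at 93.8, 137.9 and 185.9 kb upstream, also fell. Dpf2 (chr19:5896516-5913010), a subunit of the BAF chromatin remodelling complex, had 476, 440 and 436 normalized counts in LNA Control against 393, 355 and 389 in LNA Malat1. Pola2 (chr19:5940542-5964202), the accessory subunit of DNA polymerase alpha-primase, had 807, 721 and 743 in LNA Control against 665, 641 and 661 in LNA Malat1. Capn1 (chr19:5988545-6015897), the catalytic subunit of the calcium-dependent protease calpain 1, had 418, 388 and 398 against 333, 325 and 353. In each of the 3 genes the highest LNA Malat1 library stayed below the lowest LNA Control library. The log2 fold changes were −0.25 ± 0.06 for Dpf2 (adjusted p = 0.0095), −0.21 ± 0.06 for Pola2 (adjusted p = 0.015) and −0.25 ± 0.06 for Capn1 (adjusted p = 0.0070). These correspond to 82.8%, 86.1% and 83.2% of the control level. Pola2 no longer passed when any LNA Malat1 library was left out (adjusted p from 0.052 to 0.069) or under quantile normalization (0.068). Dpf2 no longer passed without LNA Malat1 replicate 2 (0.054).

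**Figure D1:**
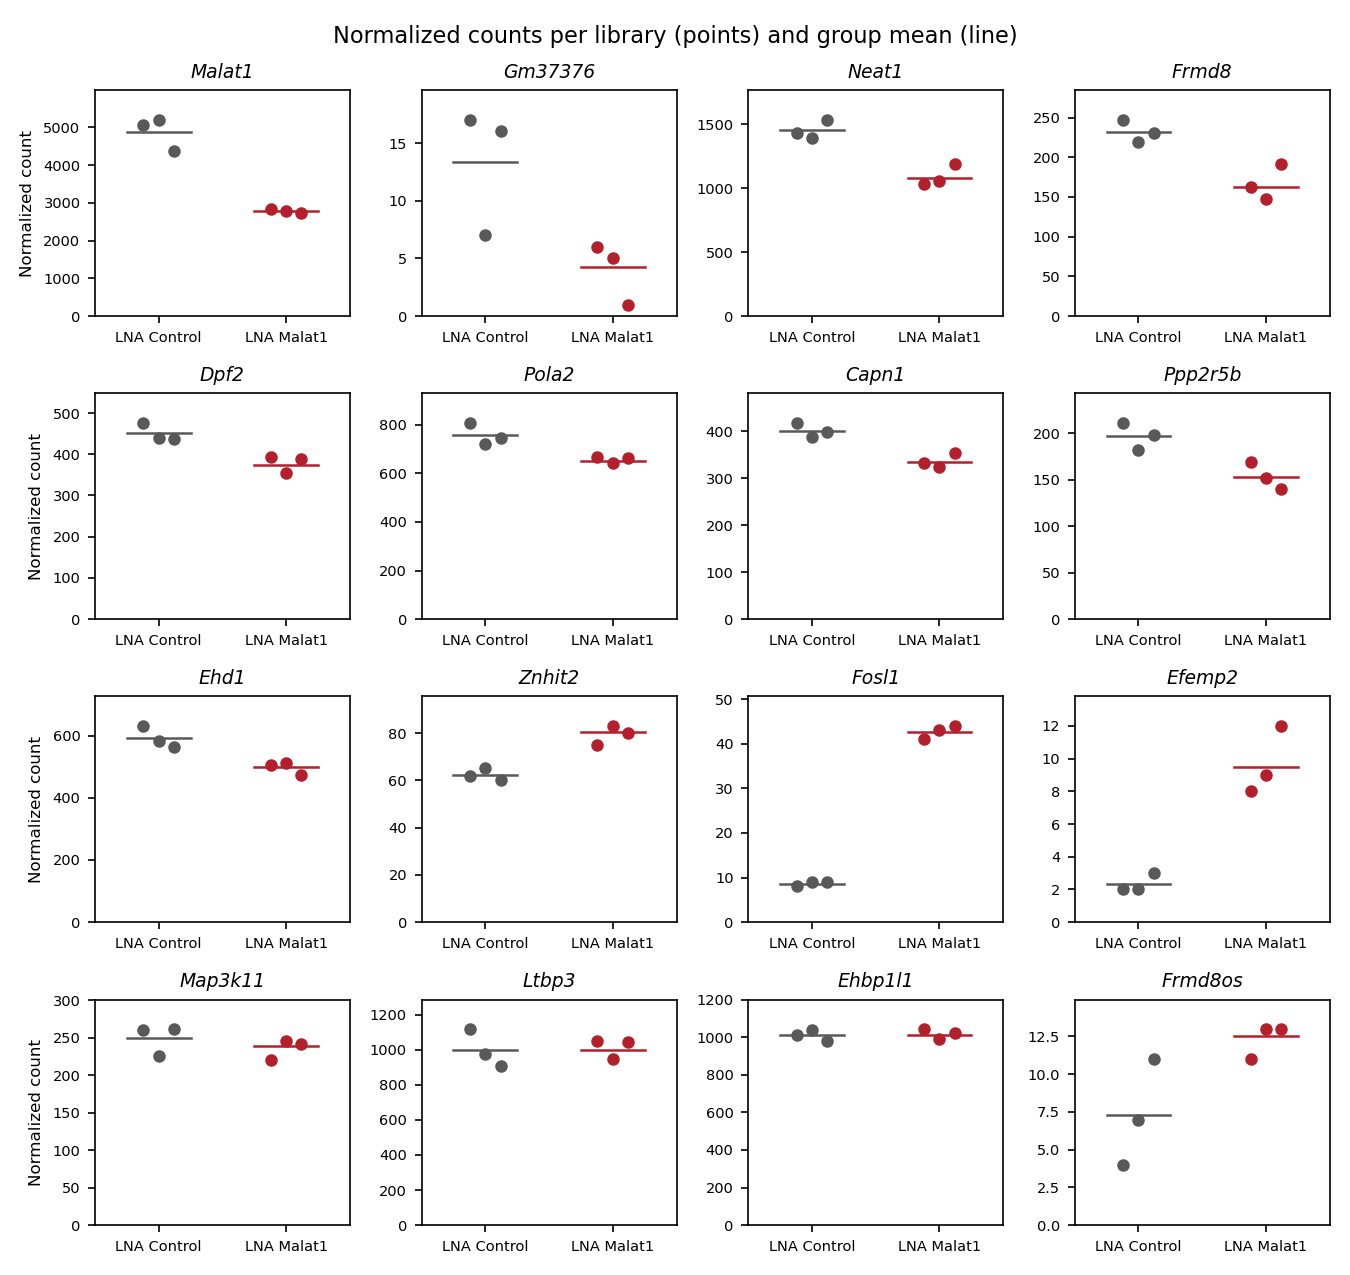
Normalized counts (vertical axes, from 0) of 16 genes around Malat1 in the 3 LNA Control and 3 LNA Malat1 libraries; points are libraries in the order of their replicate numbers, and lines are group means with LNA Malat1 replicates 1 and 3 averaged before the others. The points of the 2 groups are apart from Malat1 to Efemp2 and overlap for Map3k11, Ltbp3, Ehbp1l1 and Frmd8os.

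Between Dpf2 and the end of the 250 kb stretch upstream, the remaining tested genes did not pass in the fit of all libraries. Cdc42ep2, an effector of the GTPase Cdc42 on the Malat1 strand, had 66, 60 and 72 normalized counts in LNA Control against 53, 53 and 57 in LNA Malat1. Its groups did not overlap, and its log2 fold change of −0.27 had an adjusted p of 0.14, though it passed under quantile normalization. Syvn1, the ubiquitin ligase of endoplasmic reticulum-associated degradation on the other strand, ranged from 316 to 394 in LNA Control against 352 to 384 in LNA Malat1, at a log2 fold change of 0.09 (adjusted p = 0.45). It passed, higher, without LNA Control replicate 1. The predicted genes Gm42067, Gm10814 and Gm8034 had at most 55 normalized counts in any library, with log2 fold changes of −0.34, 0.71 and −0.18. Their adjusted p-values were 0.19, 0.25 and 0.70. Cdc42ep2, Syvn1 and these 3 were named after their values had been seen.

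On the downstream side, none of the 6 nearest tested genes passed the test, and the well-expressed ones were measured closely. Ltbp3, which binds latent TGF-beta in the matrix, is 37.2 kb downstream on the other strand. It had 1118, 974 and 909 normalized counts in LNA Control against 1052, 945 and 1043 in LNA Malat1. The groups overlapped, and the log2 fold change of 0.02 had a 95% confidence interval from −0.14 to 0.18. Ehbp1l1, an EH domain-binding protein of membrane traffic 69.4 kb downstream on the Malat1 strand, had 1012, 1040 and 982 against 1044, 993 and 1023. The groups were intermixed, and its interval ran from −0.10 to 0.12 around 0.01. The adjusted p-values of Ltbp3 and Ehbp1l1 were 0.85 and 0.88.

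Map3k11, the mixed-lineage kinase MLK3, 92.8 kb downstream, had 260, 226 and 262 normalized counts in LNA Control against 221, 246 and 242 in LNA Malat1 (log2 fold change −0.08, interval −0.24 to 0.09). Znrd2 and the predicted gene Gm50387, which overlap on the same strand 64.0 kb downstream, ranged from 17 to 42. Their log2 fold changes of 0.27 and 0.20 had intervals from −0.16 to 0.71 and from −0.29 to 0.68, and reads shared by overlapping genes had been left out of the counts. Farther out, Rela, the p65 subunit of NF-kappa B, was at 445 to 519 and 440 to 482 (log2 fold change −0.04, adjusted p = 0.69) and Pcnx3, a pecanex family gene, at 439 to 593 and 409 to 514 (−0.07, adjusted p = 0.66). Kat5, the acetyltransferase Tip60, was the nearest to the threshold on this side, at 274, 285 and 292 against 258, 248 and 250. Its groups did not overlap, and its log2 fold change of −0.17 had an adjusted p of 0.053. It passed under median-of-ratios scaling, with a mean of at least 50, and without LNA Control replicate 1.

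By distance and side, 61 of the 71 genes could be tested, that is, had a mean of at least 5 normalized counts. Of these, 12 passed at an adjusted p of at most 0.05, 3 higher and 9 lower. Without LNA Malat1 replicate 3 this number was 7, 1 higher and 6 lower. Over all 15650 genes tested 28.3% passed in either direction, 14.3% higher and 14.0% lower, while on chromosome 19 outside the window 161 of 482 did (33.4%) and in the window 19.7%. The median log2 fold change of the window was −0.01, against 0.02 over all genes and −0.01 over the rest of chromosome 19. As a whole the window therefore did not hold a larger share of changed genes than the table.

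Counts within single stretches of the window rest on few genes. Within 250 kb upstream 5 of 13 tested genes fell and none rose, with a median log2 fold change of −0.25. Over all genes tested 14.0% fell and 14.3% rose. Within 250 kb downstream 0 of 14 passed in limma, and medians were 0.03 up to 100 kb and −0.07 from 100 to 250 kb. Beyond 250 kb, 1 of 16 upstream genes rose and 2 fell, and 2 of 16 downstream genes rose. Without LNA Malat1 replicate 3 these were Ehd1 alone upstream and Fosl1 alone downstream. The downstream count of 0 was not kept everywhere: Kat5 passed, lower, under median-of-ratios scaling, with a mean of at least 50 and without LNA Control replicate 1, and Gm50315 passed, higher, without LNA Control replicate 3. The upstream count of 5 was 3 (Neat1, Frmd8 and Capn1) without LNA Malat1 replicate 2, while Cdc42ep2 and Slc25a45 also fell under quantile normalization. Syvn1 rose without LNA Control replicate 1, and Frmd8os without LNA Control replicate 3. The difference between the sides was not tested. Among genes with a mean of at least 50 normalized counts, 5 of 7 fell within 250 kb upstream and 0 of 10 passed within 250 kb downstream, and over all genes of that level 2071 of 10490 fell and 1276 rose.

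By strand, 6 of 34 tested neighbours on the Malat1 strand passed (17.6%). All 6 were lower and lay upstream in the fit of all libraries. On the other strand 5 of 26 passed (19.2%), 3 higher and 2 lower, Gm37376 among the latter. Over all genes tested 28.3% passed, 14.3% higher and 14.0% lower, so the share that passed in either direction was not larger on either strand. Efemp2 and Gm37376 reached the minimum mean only through the group where they were higher. Without LNA Malat1 replicate 3 the count on the other strand was 2, Fosl1 and Ehd1, and without LNA Malat1 replicate 2 it was 3, with Efemp2. Within 250 kb upstream the 5 genes that fell, Neat1, Frmd8, Dpf2, Pola2 and Capn1, were all among the 8 tested on the Malat1 strand, whose median log2 fold change was −0.25. The 5 tested genes on the other strand there had a median of 0.09, and 4 of them were weakly expressed: the median level was 284.4 normalized counts on the Malat1 strand and 11.3 on the other. Level and strand cannot be told apart in this stretch.

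**Figure D2:**
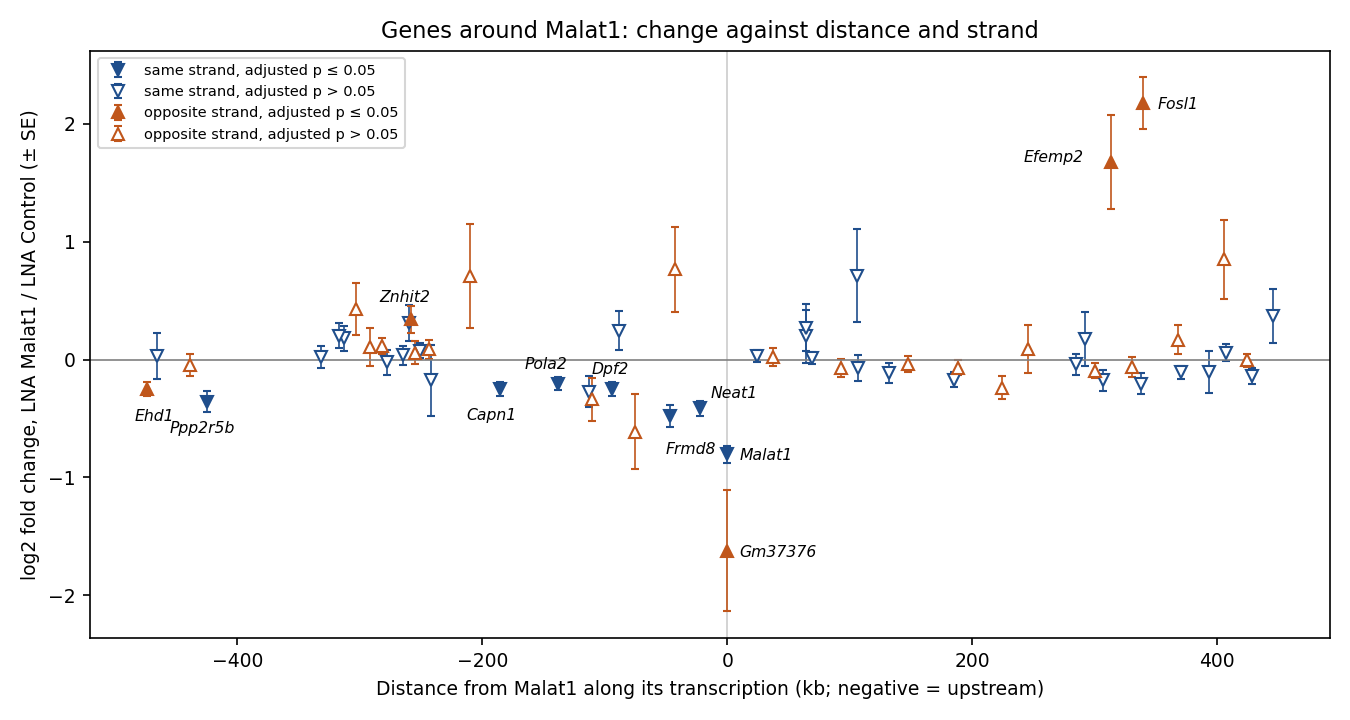
Log2 fold change of LNA Malat1 against LNA Control (vertical axis, bars are SE) by distance from Malat1 in kilobases (horizontal axis, negative is upstream) for the 61 tested genes; downward triangles are on the Malat1 strand, upward ones on the other, and filled ones have an adjusted p of at most 0.05. The filled symbols from Capn1 to Neat1 lie below 0, whereas no symbol within 250 kb downstream is filled in this fit of all libraries.

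The correlation between distance and change depended on the genes included. Pearson's r was taken with the log10 of the distance, here and below. Across the 59 tested genes with a distance, Spearman's correlation between distance and log2 fold change was 0.13 and Pearson's r was 0.17. For the 29 upstream genes they were 0.21 and 0.23, and for the 30 downstream genes −0.02 and 0.13. Among genes with a mean of at least 50 they were 0.17 and 0.30 (39 genes), with 0.34 and 0.59 upstream (19 genes) and −0.15 and −0.23 downstream (20 genes). Summed over the genes within 250 kb upstream, normalized counts were 3957, 3654 and 3873 in LNA Control against 3137, 3059 and 3313 in LNA Malat1, and without Neat1 they were 2522, 2261 and 2339 against 2105, 2003 and 2125. Both sums were lower in every LNA Malat1 library. Downstream the sums overlapped, at 5227, 4857 and 4703 against 4892, 4716 and 4944. The upstream sums include the genes that fell, so they repeat that result. None of these sums was adjusted for the total normalized counts, which were lower in every LNA Malat1 library. These correlations are across genes that share the 6 libraries.

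The change also varied with expression level. The log2 fold change of the 60 tested neighbours had a Spearman correlation of −0.45 with their mean level, and over all 15650 genes it was −0.35. Weakly expressed genes of the whole table tended to be higher in LNA Malat1: those with means from 5 to below 10 had a median log2 fold change of 0.43, and those with means of at least 500 one of −0.05. The median of the former class was −0.03 under quantile normalization. The 5 antisense genes of the window that could be tested had 4 positive values, a median log2 fold change of 0.71 and a median level of 9.0 normalized counts. None of them passed in limma, although Frmd8os and Gm50315 did, both higher, without LNA Control replicate 3. Gm37376, at a mean of 8.67, was in the other direction.

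**Figure D3:**
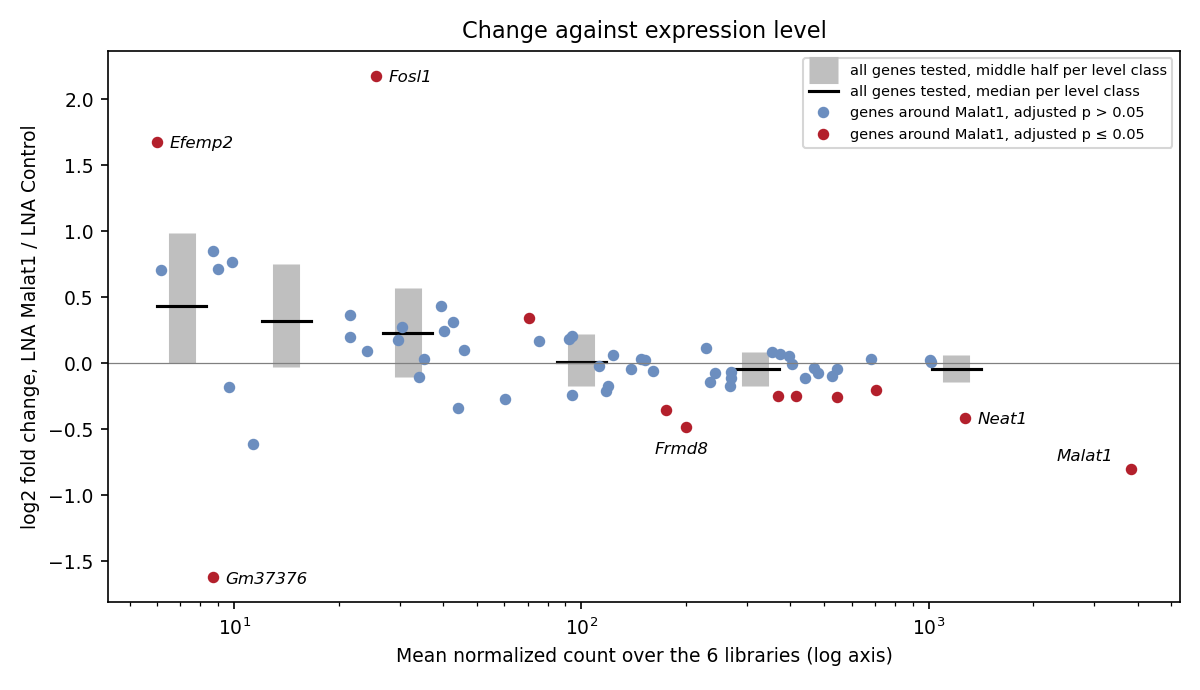
Log2 fold change (vertical axis) against the mean normalized count over the 6 libraries (horizontal log axis) for the 61 tested genes around Malat1, red where the adjusted p is at most 0.05; grey bars span the lower to the upper quartile and black lines mark the median of all tested genes in each of 6 level classes. Malat1, Neat1, Frmd8 and Gm37376 lie below the bar of their level class and Fosl1 and Efemp2 above it.

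Calls required in addition a fold change of at least 1.5, and 4 window genes met both criteria, Malat1 and Gm37376 lower and Fosl1 and Efemp2 higher. Over all genes tested 10.9% were called, 8.0% higher and 2.92% lower. Efemp2, with a mean of 2.33 in LNA Control, and Gm37376, with 4.0 in LNA Malat1, reached the minimum mean of 5 only through their higher group. Without LNA Malat1 replicate 3 only Fosl1 and Malat1 were called. Fosl1 and Efemp2 are on the far downstream side, 339.7 and 313.2 kb from Malat1 and on the other strand.

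Fosl1 (chr19:5447547-5455946) encodes Fra-1, a subunit of the AP-1 transcription factor. It had 8, 9 and 9 normalized counts in LNA Control against 41, 43 and 44 in LNA Malat1. The replicates were close together and the groups far apart, with means of 8.67 ± 0.58 (SD, n = 3) and 42.75 ± 0.35 (SD, n = 2). The level rose to 493.1% of control by these means, or by 2.18 ± 0.22 (SE) on the log2 scale, with an adjusted p of 1.5e-05 in limma. Ccdc85b, a transcriptional regulator that overlaps Fosl1 on the opposite strand, had 124, 121 and 133 against 114, 107 and 106, which did not overlap, at a log2 fold change of −0.21 (adjusted p = 0.10).

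Efemp2 (chr19:5473954-5482517) encodes fibulin-4, a protein of elastic fibres. Its normalized counts were 2, 2 and 3 in LNA Control against 8, 9 and 12 in LNA Malat1. The groups did not overlap, at sums of 7 and 29. Their ratio of 4.14 had an exact 95% counting interval from 1.78 to 11.2, which covers counting error only. The log2 fold change was 1.67 ± 0.40 (SE), with an adjusted p of 0.0076 in limma. The group means were 2.33 in LNA Control and 9.67 in LNA Malat1. Efemp2 thus reached the minimum mean only through the group where it is high, which limits what its test can show. Without LNA Malat1 replicate 3 Efemp2 had a mean below 5 and was not tested. Mus81, a structure-specific DNA endonuclease subunit that overlaps Efemp2 on the opposite strand, was at 121 to 136 and 108 to 115, with a log2 fold change of −0.17 (adjusted p = 0.17).

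The far upstream side held 3 more genes that passed. Ppp2r5b, a B56 regulatory subunit of protein phosphatase 2A on the Malat1 strand 425.1 kb away, had 211, 182 and 198 normalized counts in LNA Control against 169, 152 and 140 in LNA Malat1. Ehd1, an ATPase of endocytic recycling on the other strand 474.1 kb away, had 631, 583 and 563 against 505, 512 and 472. Both were lower in every LNA Malat1 library. Ppp2r5b fell by 0.36 ± 0.09 (adjusted p = 0.0099 in limma) and Ehd1 fell by 0.25 ± 0.06 (adjusted p = 0.0070) on the log2 scale. The fall of Ehd1 was close in size to those of Dpf2 and Capn1, and any link to distance was not tested. Ppp2r5b no longer passed without LNA Malat1 replicate 3 (adjusted p = 0.054).

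Znhit2, a zinc finger HIT domain protein 258.5 kb upstream on the other strand, had 62, 65 and 60 normalized counts in LNA Control against 75, 83 and 80 in LNA Malat1. It was higher in every LNA Malat1 library, by 0.34 ± 0.12 on the log2 scale (adjusted p = 0.042). It passed in 5 of 15 alternatives and no longer did when any 1 of the 6 libraries was left out (adjusted p from 0.065 to 0.13). Tm7sf2, a sterol reductase of cholesterol synthesis on the Malat1 strand at 260.1 kb, had 39, 40 and 35 against 49, 45 and 48, at a log2 fold change of 0.31 (adjusted p = 0.15).

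**Figure D4:**
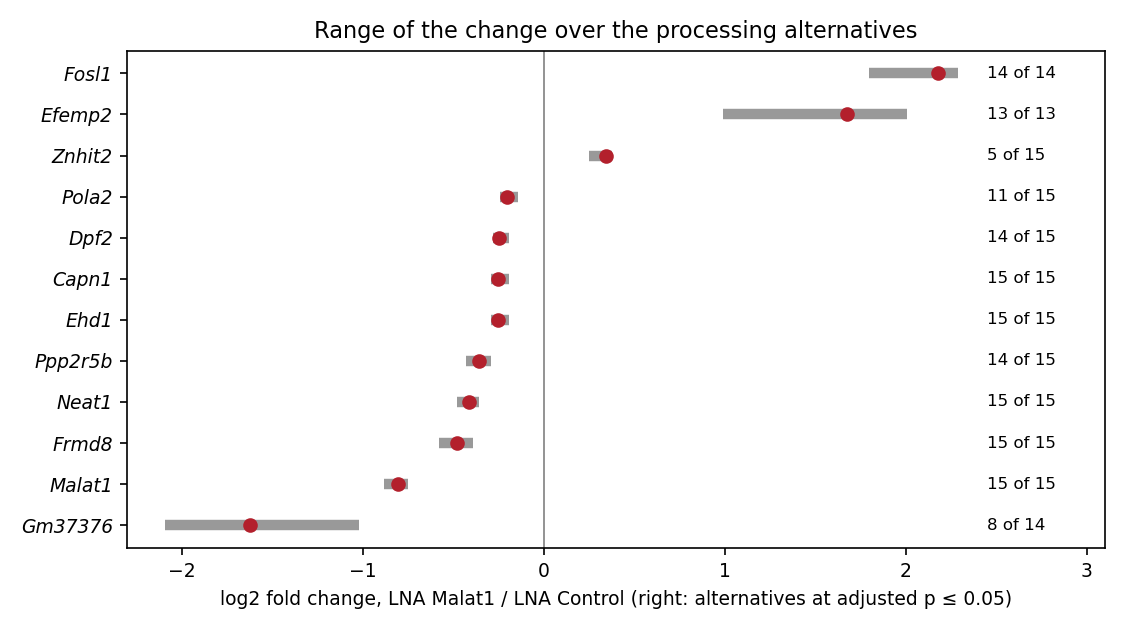
Log2 fold change of the 12 genes that passed the test (red points) with its range over the processing alternatives (grey bars); the numbers at the right give in how many alternatives the adjusted p was at most 0.05. Malat1, Neat1, Frmd8, Capn1 and Ehd1 passed in all 15, whereas Znhit2 passed in 5 of 15 and Gm37376 in 8 of 14.

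Grouped by role, the window held no group of more than 2 tested genes in which most members passed. Malat1 and Neat1, the nuclear noncoding RNA pair, both fell, but Malat1 is the RNA that the gapmer targets. Over all genes tested 28.3% passed, and the groups are too small to be set against that share. Of 9 tested genes of transcription and chromatin, 2 rose (Fosl1 and Znhit2), 1 fell (Dpf2) and 6 did not pass, Rela among them. Among 11 genes of membrane traffic and autophagy, 2 fell (Frmd8 and Ehd1) and 9 did not pass, with Ehbp1l1 the most highly expressed. In DNA replication, repair and mitosis 1 of 5 fell (Pola2), and in proteases and protein turnover 1 of 4 (Capn1). Among kinase, phosphatase and signalling genes 1 of 3 fell (Ppp2r5b), and 1 of 2 matrix genes rose (Efemp2), the other being Ltbp3. None of 4 genes of RNA processing and translation passed, with Eif1ad, named for its eIF1A-like domain, at 391 to 420 and 386 to 420. None of 3 genes of the cytoskeleton and its GTPase signalling passed in limma, with the actin-severing protein cofilin 1 (Cfl1) at 498 to 573 and 495 to 525, nor did either transporter and metabolic gene. Cfl1 passed without LNA Control replicate 3 (log2 fold change −0.16, adjusted p = 0.042), and Cdc42ep2, of the same group, under quantile normalization, as did the carrier gene Slc25a45. Kat5 of the transcription group passed under the settings given above, and Syvn1 and the peptidase-like Naaladl1 of the protease group passed, higher, without LNA Control replicate 1.

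In 22 of the 61 tested genes the groups did not overlap, 16 lower and 6 higher in LNA Malat1. Over all genes tested 41.3% did not overlap, 20.8% lower and 20.5% higher. Those 22 include the 12 that passed. The remaining 10 had absolute log2 fold changes of at most 0.85, with Ap5b1, an adaptor protein complex subunit, at 103, 103 and 100 against 87, 83 and 89 (−0.24, adjusted p = 0.083).

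The other 10 members had means below 5 and were not tested: Gm7074, 4930481A15Rik, Gm25432, Ctsw, 1700061A03Rik, Ovol1, Kcnk7, Gm16538, Gm28374 and Tmem262. Their values ranged from 0 to 8 in single libraries and their highest mean was 3.0. Gm16538, which overlaps Znrd2 on the opposite strand, was listed at 0 in all LNA Control libraries and at 3, 1 and 3 in LNA Malat1. Without the filter on low values it passed and Gm37376 did not.

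Of the 71 genes, 55 are protein-coding, 38 are on the Malat1 strand and 32 on the other, and 31 lie upstream and 38 downstream. A total of 42 overlap another gene of the table, 39 of them on the opposite strand, and such values depend on how reads were assigned. Malat1 took 25.0, 27.0 and 23.8% of the normalized counts of the window in LNA Control against 17.2, 17.4 and 16.6% in LNA Malat1. Without Malat1 the window summed to 15150, 14055 and 13992 against 13645, 13279 and 13734, with every LNA Malat1 library below the lowest LNA Control library there too. With Neat1 also left out the sums were 13715, 12662 and 12458 against 12613, 12223 and 12546, and the groups overlapped. Total normalized counts were also lower in every LNA Malat1 library, at 4758777 to 4762957 against 4831007 to 4921406 in LNA Control. These sums were not adjusted for the totals, so their separation is not a result about the window.

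The proteins of the bodies in which Malat1 and Neat1 RNA reside were read from a list of 28 nuclear speckle and paraspeckle genes, all of which were tested. Of these 2 rose, 2 fell and 24 did not pass, none reached 1.5-fold, and the median log2 fold change was 0.004. The share that passed, 14.3%, compares with 28.3% over all genes. The count was 7 without LNA Control replicate 1 or under quantile normalization and 8 without LNA Control replicate 3. Pspc1, a core paraspeckle protein, had 502, 542 and 557 normalized counts in LNA Control against 402, 408 and 436 in LNA Malat1 (log2 fold change −0.36, adjusted p = 0.00073). Srsf1, a splicing factor of speckles, fell by 0.18 (adjusted p = 0.041). Rbm25, a speckle-associated splicing regulator, and Taf15, an RNA-binding FET protein, rose by 0.25 and 0.23 (adjusted p = 0.0029 and 0.0061). Hnrnpu, which encodes an RNA- and chromatin-binding protein, was at 2334, 2573 and 2549 against 2736, 2657 and 2536, overlapping groups with a log2 fold change of 0.09 (adjusted p = 0.30).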

How the data were processed

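RNA-seq data from HL-1 cells were analysed, with 3 LNA Control and 3 LNA Malat1 libraries grouped by their sample titles. According to the methods of the study and the submitters' processing notes, the authors prepared stranded total RNA libraries, trimmed reads (Trimmomatic 0.39), mapped them to mm10 (STAR 2.7.7a), counted those at least partly on exons (featureCounts 1.6.5), excluded reads on several genes or regions, and used DESeq2 1.30.0. The deposited values form a score, since the authors divided counts by a factor per library and rounded them, and are called normalized counts here. As they are not raw counts, no count model was used.

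Genes with a mean of at least 5 entered a limma fit (version 3.58.1, R 4.3.3, lmFit and eBayes with trend) on log2(normalized count + 1), two-sided, with Benjamini-Hochberg adjustment over all 15650 genes tested. A gene rose or fell ("passed the test") where its adjusted p did not exceed 0.05 and was called if it also changed by at least 1.5-fold. The procedure was also run on simulated data with equal spread in both groups, unlike these libraries. That run therefore does not bear on the unequal spread seen here. Distance is the gap between gene bodies. Positions are those of the table (mm10, counted from 1), and all 71 genes have the same position in GENCODE M21, which gave exonic lengths. Depth was read from the gaps and repeats left by rounding, as the best factor for each library, and no interval was computed for it. LNA Control replicates 1 and 2 gave the same factor, 0.9208. The chi-square values rest on these depths. Replicate numbers are shared between the groups. Deviations of same-numbered libraries had weak positive correlations, above those of different numbers, from which they are not independent. The main fit was planned without a block, and a fit with the replicate block was among the alternatives.

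Genes named in the text are Malat1, Neat1, every window gene that passed, the 6 nearest tested genes on each side, the most highly expressed gene of each role group and the members that were not tested; others were named after their values were seen. The window, the gene lists and the role groups were chosen with earlier results of these data known, so no list was tested as a set. Alternatives were other scalings (median of ratios, quantile, equal totals), pseudocounts of 0.1 and 5, dropping the filter or raising it to 50, other fold change limits (none, 2, or limma's treat against 1.5), the replicate block, LNA Malat1 replicates 1 and 3 as 1 sample, and leaving out each library. The values of 1 tested member are not reported here.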

Additional observations from a re-analysis of the deposited data

How the results depend on the processing

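The 4 called window genes became 1 (Malat1) with a mean of at least 50 and 1 under limma's treat, and the count was 12 without a fold change minimum. Leaving out each library gave 2 to 5 calls, with 2 (Fosl1 and Malat1) without LNA Malat1 replicate 3. The 12 genes that passed at an adjusted p of at most 0.05 ranged from 7 to 13 when each library was left out, with 7 without LNA Malat1 replicate 3. The median log2 fold change of the window, −0.006, was 0.03 with library totals set equal and −0.065 with a mean of at least 50, and −0.031 to 0.025 when each library was left out. That of the genes within 250 kb upstream, −0.25, was −0.194 under quantile normalization and −0.213 with equal totals, and −0.266 to −0.21 when each library was left out. In the nuclear body list 7 genes passed under quantile normalization in place of 4, and 3 to 8 when each library was left out, with 7 without LNA Control replicate 1 and 8 without LNA Control replicate 3. The cause of these shifts was not tested, apart from the fewer genes of the stricter filter. No named gene changed direction while past the threshold under any alternative run.

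The replicate numbers were checked by correlating deviations from the group means of same-numbered libraries, which gave 0.0858, 0.1817 and 0.083. Libraries of different numbers gave −0.1887 to 0.0458, all below the same-numbered ones. Deviations within a group cancel for each gene, so the values for different numbers are not independent of those for the same number. Whether the libraries were prepared in pairs was not tested. With the replicate block 4 window genes were called and 11 passed, Znhit2 being lost (adjusted p = 0.056), and 6 genes of the nuclear body list passed. LNA Malat1 replicates 1 and 3 as 1 sample gave 3 calls and 10 genes that passed. With 4512584 to 5592914 reads on genes per library, Gm37376, Efemp2 and the antisense genes rest on few reads.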
